A study of Homo sapiens with 7 samples.

Results

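The 10 genes described here encode chromatin regulators and cohesin proteins: ASXL1, ASXL2, TET2, DNMT3A, EZH2, KDM6B, RAD21, SMC3, STAG1 and ZBTB7A. They were chosen by name and form 10 of the 20163 protein-coding genes of GENCODE 44 on GRCh37. The sites were taken from lists of ChIP-seq peaks made in Kasumi-1 cells, an established human acute myeloid leukemia line that expresses AML1-ETO, the fusion of the DNA-binding part of AML1 (RUNX1) with the co-repressor-binding protein ETO. One list each was used for AML1 (11692 peaks), AML1-ETO (18087), the co-repressor N-CoR (10004), the co-activator and histone acetyltransferase p300 (11020) and H3K4me3 (19632), a histone mark of active or poised promoters. All samples were untreated cells of this line with no other genotype, the AML1 antibody binds the part of AML1 that the fusion lacks, and AML1-ETO was pulled down through ETO. A peak was assigned to a gene when its summit, the base of highest pile-up, lay in the gene body or in the 5 kb to either side. Those regions covered 1179 kb in total.

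Reads of 2 biological replicates per antibody had been pooled before peaks were called, so every count below comes from 1 list and has no replicate check. No test between conditions was possible, and a 95% exact (Clopper-Pearson) interval given with a share covers counting error only. The lists hold positions without read counts, so the depth behind a summit is unknown, and a gene without a summit is one without a summit past the threshold for calling. The names of peaks in the N-CoR list begin like those of the AML1-ETO list, and those in the p300 and H3K4me3 lists like those of the AML1 list, so antibodies were taken from the sample records. The lists themselves differ: 92 summits of N-CoR fell on the same base as one of AML1-ETO, 38 of p300 and 0 of H3K4me3 on the same base as one of AML1. They also hold no expression and no sequence variants, so neither the level nor the mutation state of the genes could be checked.

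These genes act at several layers of chromatin. DNMT3A places methyl groups on cytosine and TET2 oxidises them, a first step in their removal. EZH2 is the catalytic subunit of Polycomb repressive complex 2 that methylates H3K27, KDM6B (JMJD3) demethylates the same residue, and ASXL1 and ASXL2 are partners of the deubiquitinase BAP1, which removes a histone mark placed by Polycomb. RAD21, SMC3 and STAG1 are subunits of cohesin, the ring that holds DNA loops and sister chromatids. ZBTB7A (LRF) is a zinc-finger transcription factor. Most of these genes are recurrently mutated in myeloid leukemia, and ASXL2 and ZBTB7A are known for mutations in cases with the AML1-ETO fusion.

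The windows below are the 100 bases of deposited intervals (AML1-ETO unless named otherwise), read from GRCh37 on the plus strand, and they were chosen to show the kinds of site found. Capitals mark 1 of 3 sequences searched on both strands: TGTGGT, the core letters bound by Runx proteins, GAGGAA, letters found in sites of the Ets factor PU.1, and CCGGAA, letters of other Ets factor sites. On the minus strand TGTGGT reads as ACCACA. The motifs GAGGAA and CCGGAA end in the same letters, but neither holds the other.

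The first set holds AML1-ETO summits nearest to a start in DNMT3A (chr2:25565435-25565534), SMC3 (chr10:112327468-112327567), STAG1 (chr3:136471235-136471334) and ASXL2 (chr2:26101389-26101488).
DNMT3A promoter: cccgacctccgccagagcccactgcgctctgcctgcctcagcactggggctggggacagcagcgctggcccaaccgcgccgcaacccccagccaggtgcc
SMC3 promoter: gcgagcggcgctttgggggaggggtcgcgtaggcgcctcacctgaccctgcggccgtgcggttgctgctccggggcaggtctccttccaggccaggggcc
STAG1 promoter: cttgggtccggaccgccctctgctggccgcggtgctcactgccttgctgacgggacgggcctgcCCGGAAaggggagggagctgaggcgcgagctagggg
ASXL2 promoter: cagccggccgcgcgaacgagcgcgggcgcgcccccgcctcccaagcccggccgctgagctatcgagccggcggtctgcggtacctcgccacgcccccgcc
Between 73% and 81% of the bases in these windows were G or C, none held TGTGGT or GAGGAA, and the STAG1 window held CCGGAA.

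The second set holds intronic AML1-ETO summits of EZH2 (chr7:148536194-148536293), DNMT3A (chr2:25518110-25518209 and chr2:25524469-25524568) and KDM6B (chr17:7741962-7742061).
EZH2 intron 3: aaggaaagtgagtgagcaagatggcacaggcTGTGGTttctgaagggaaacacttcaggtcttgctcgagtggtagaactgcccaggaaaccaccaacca
DNMT3A intron 3: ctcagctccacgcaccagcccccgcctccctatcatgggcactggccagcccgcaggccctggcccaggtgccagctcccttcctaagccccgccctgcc
DNMT3A intron 2: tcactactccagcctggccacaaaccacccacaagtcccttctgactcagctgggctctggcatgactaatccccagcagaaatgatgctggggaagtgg
KDM6B intron 1: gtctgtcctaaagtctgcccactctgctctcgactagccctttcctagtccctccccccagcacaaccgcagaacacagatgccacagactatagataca
Of these windows the one in EZH2 held a searched sequence, TGTGGT at bases 32 to 37. In the genome this is chr7:148536225-148536230, and the AML1 summit of that site, at position 148536230, fell on its last base.

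The third set was chosen after its values were seen: the AML1-ETO windows at shared sites in ASXL1 (chr20:30975235-30975334), ASXL2 (chr2:26074887-26074986) and DNMT3A (chr2:25539111-25539210), and the N-CoR window in ZBTB7A (chr19:4051889-4051988).
ASXL1 intron 4: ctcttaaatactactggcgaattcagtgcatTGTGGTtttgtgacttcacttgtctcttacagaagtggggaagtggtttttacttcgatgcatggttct
ASXL2 intron 1: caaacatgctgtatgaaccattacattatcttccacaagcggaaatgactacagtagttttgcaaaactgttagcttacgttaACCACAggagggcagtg
DNMT3A intron 1: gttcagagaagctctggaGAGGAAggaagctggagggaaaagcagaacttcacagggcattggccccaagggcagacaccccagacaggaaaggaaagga
ZBTB7A intron 2: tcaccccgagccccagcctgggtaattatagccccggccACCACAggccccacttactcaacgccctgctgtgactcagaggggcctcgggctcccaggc
In the ASXL windows, where AML1 and AML1-ETO summits lay close together, 41% of the bases were G or C.

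AML1-ETO summits were present at 7 of the 10 genes (41.3% of all protein-coding genes had one), AML1 summits at 5 (34.9% of coding genes), N-CoR at 4 (26.7%) and p300 at 9 (45.5%). All 10 genes had an H3K4me3 summit, against 68% of coding genes. The order of AML1-ETO and AML1 turned when the first 50% of each list in deposited order was kept, with AML1-ETO at 3 genes and AML1 at 5. In numbers of summits, the 10 genes held 20 of AML1-ETO, 11 of AML1, 8 of N-CoR, 14 of p300 and 25 of H3K4me3. Per 100 kb this was 1.7 for AML1-ETO against 1.04 over all coding genes, 0.933 against 0.671 for AML1, 0.679 against 0.564 for N-CoR, 1.19 against 0.854 for p300 and 2.12 against 1.57 for H3K4me3. These densities rest on the full lists and are uneven between genes. DNMT3A (6) and KDM6B (5) held the most AML1-ETO summits, at 4.81 and 16.4 per 100 kb. The density was 0 at TET2, RAD21 and ZBTB7A, 0.469 at STAG1 and 1.15 to 2.2 at the remaining genes. N-CoR summits were at DNMT3A (3), EZH2 (2), KDM6B (2) and ZBTB7A (1) only. The first 50% of each list held 6 of the 20 AML1-ETO summits and 7 of the 11 of AML1. It held 4 of the 8 of N-CoR, 9 of the 14 of p300 and 11 of the 25 of H3K4me3. The median region of the 10 genes was 89 kb long and that of all coding genes 37.2 kb, so a share of genes with a summit is not a comparison at equal length.

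**Figure D1:**
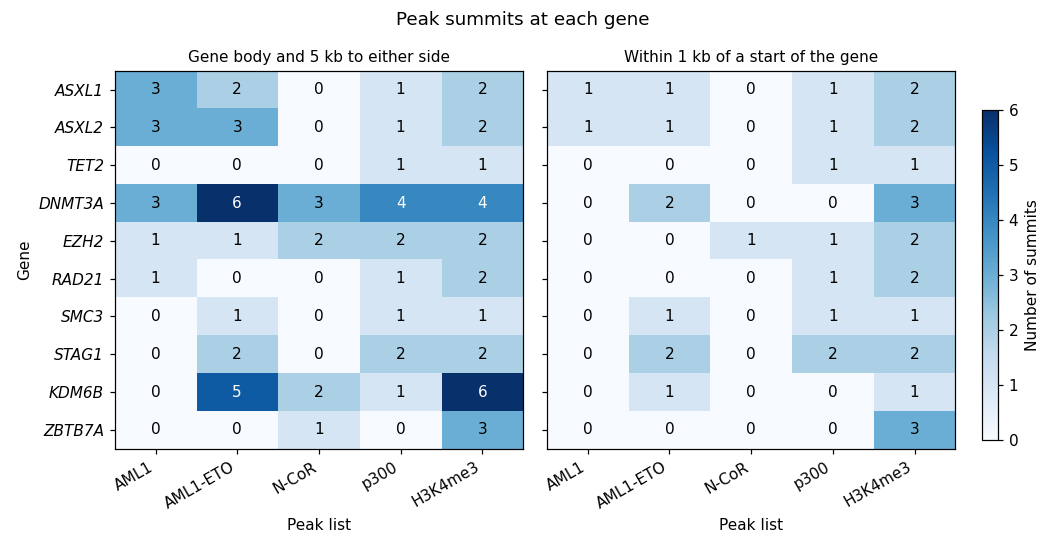
Number of summits (cell value and shade) of the 5 peak lists (columns) at each of the 10 genes (rows), in the gene body with 5 kb to either side (left) and within 1 kb of any annotated start (right). DNMT3A (6) and KDM6B (5) hold the most AML1-ETO summits, and every gene has H3K4me3 at a start.

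Within 1000 bp of an annotated start, called the promoter here, H3K4me3 was listed at 10 of 10 genes (62.3% of coding genes), p300 at 7 (37%), AML1-ETO at 6 (23.3%), AML1 at 2 (18.6%) and N-CoR at 1 (13.3%). Within 2500 bp, AML1 was at 4 and N-CoR at 2, and in the first 50% of each list AML1-ETO was at 2, AML1 at 1 and N-CoR at 0. The genes have from 2 (ZBTB7A) to 24 (ASXL1) annotated starts, and more starts put more sequence within reach. With the outermost start of each gene only, H3K4me3 was at 8, p300 at 6 and AML1-ETO at 5, while AML1 and N-CoR stayed at 2 and 1. The promoter with N-CoR was that of EZH2, and those with AML1 were the promoters of ASXL1 and ASXL2. AML1-ETO without AML1 was listed at the promoters of DNMT3A, SMC3, STAG1 and KDM6B. TET2, RAD21 and EZH2 had p300 at the promoter without AML1 or AML1-ETO, and ZBTB7A had H3K4me3 alone. Of coding genes, 18.4% had H3K4me3 alone at the promoter, 13.9% p300 with H3K4me3 (TET2 and RAD21), 4.29% AML1-ETO with both (SMC3 and STAG1), 3.33% AML1-ETO with H3K4me3 (DNMT3A and KDM6B) and 1.84% N-CoR and p300 with H3K4me3 (EZH2). These patterns join all starts of a gene: in KDM6B the AML1-ETO and H3K4me3 summits counted lay at different internal starts, and the nearest H3K4me3 summit was 1386 bp from that AML1-ETO summit.

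**Figure D2:**
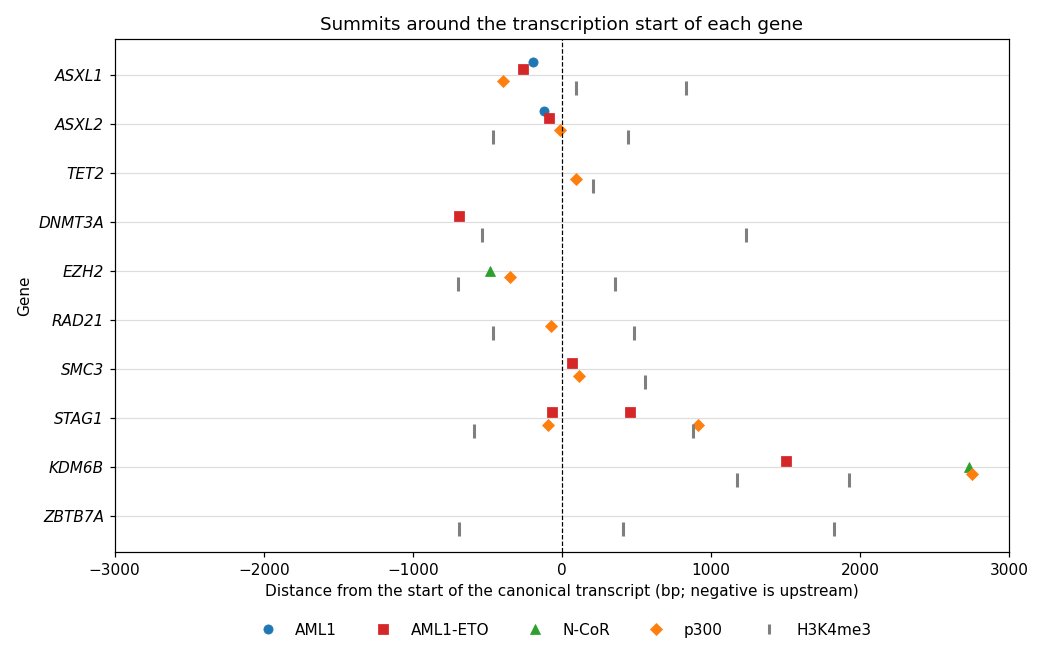
Position of summits within 3 kb of the start of the canonical transcript (x axis, bp, negative is upstream) for each gene (rows), with 1 symbol per summit. p300 lies within 1 kb of that start in 7 of the 10 genes, and H3K4me3 summits often stand to the sides of it.

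Summits of the 4 proteins whose 100 bp windows shared at least 1 base were joined into a site, which gave 35 sites at the 10 genes. Of these, 14 lay at promoters, 17 in introns, 3 in exons and 1 downstream of a gene. A single protein was listed at 21 sites, 2 proteins at 11, 3 at 2 and all 4 at 1. Sites with 2 or more proteins made up 40% (95% exact interval 23.9 to 57.9%), and the share over the 29448 sites of the series was 43%. H3K4me3 lay within 1 kb of 12 of the 14 promoter sites and of 4 of the other 21, and each of those 4 was in an intron of KDM6B. In all this was 16 of 35 sites (45.7%, 28.8 to 63.4%), near the 42.2% of sites in the series. Over the whole lists, with promoters counted at the starts of all coding genes, 73.6% of AML1-ETO and 93.9% of p300 promoter summits had H3K4me3 within 1 kb.

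AML1-ETO shared its window with AML1 at 6 of its 20 summits (30%, interval 11.9 to 54.3%; whole list 46.2%). It shared it with p300 at 6 (30%, 11.9 to 54.3%; whole list 21.8%) and with N-CoR at 4 (20%, 5.73 to 43.7%; whole list 38.9%). Each of these intervals covers the share of the whole list, so no difference from it was detectable with 20 summits. N-CoR was in 0 of 8 promoter windows of AML1-ETO (upper limit of the exact interval 36.9%; 31.5% in the whole list) and in 4 of the other 12 (33.3%, 9.92 to 65.1%; 41.9% in the whole list). p300 was in 3 of the 8 (37.5%, 8.52 to 75.5%; 31.9%) and in 3 of the other 12 (25%, 5.49 to 57.2%; 17.8%). At promoters and elsewhere, the share of the whole list lay within the interval for both co-regulators. The 8 promoter windows are at starts of the 10 genes, while the shares of the whole list count starts of all coding genes. The AML1-ETO summit downstream of KDM6B, near the starts of NAA38 and CYB5D1, is therefore among the other 12 only by the narrower rule. Where windows were shared, the AML1-ETO summit was 3 to 62 bp from that of AML1 (median 23), 4 to 37 bp from N-CoR (median 17) and 26 to 74 bp from p300 (median 40).

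**Figure D3:**
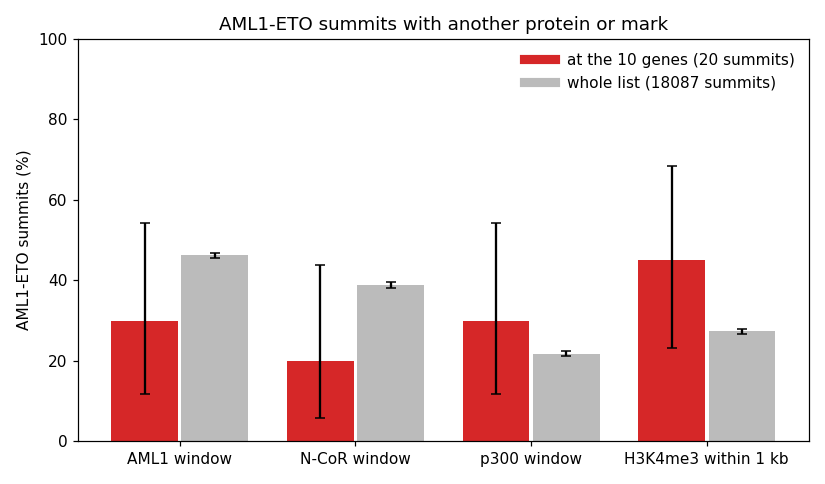
Share of AML1-ETO summits (y axis, %) that share their window with AML1, N-CoR or p300 or lie within 1 kb of an H3K4me3 summit, at the 10 genes (red, 20 summits) and in the whole list (grey, 18087); bars are shares and lines are 95% exact intervals. The intervals at the 10 genes cover the share of the whole list in all 4 pairs.

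By gene, AML1-ETO and AML1 met at a site in 4 of the 10 genes (24.3% of coding genes): ASXL1, ASXL2, DNMT3A and EZH2. AML1-ETO met N-CoR in 3 (19.1%), DNMT3A, EZH2 and KDM6B. It met p300 in 5 (15.3%), namely ASXL2, DNMT3A, EZH2, SMC3 and STAG1. All 4 proteins met in EZH2 alone (8.54% of coding genes).

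DNMT3A, the de novo DNA methyltransferase, carried the most summits of the 10 genes, with 6 of AML1-ETO, 3 of AML1, 3 of N-CoR, 4 of p300 and 4 of H3K4me3. As many AML1-ETO summits or more were found at 1.7% of coding genes, and as many p300 summits or more at 1.44%. Over its 125 kb this was 4.81 AML1-ETO summits per 100 kb. At its first start, AML1-ETO was listed 26 bp upstream without AML1, N-CoR or p300, and H3K4me3 157 bp from that summit. The remaining 9 sites were spread over introns 1 to 6 of the canonical transcript, each at least 20875 bp from an H3K4me3 summit.

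The intronic sites of DNMT3A differed in their proteins. The site in intron 1 (chr2:25539111-25539236) held AML1-ETO, N-CoR and p300 within 26 bp, without AML1, and GAGGAA stood in its AML1-ETO window. In intron 2 (chr2:25524456-25524568) AML1-ETO and N-CoR lay 13 bp apart. Intron 3 held 2 adjacent sites whose windows did not touch: AML1 with N-CoR (chr2:25517734-25517885) and AML1-ETO with p300 (chr2:25518110-25518248), with the N-CoR and AML1-ETO summits 376 bp apart. AML1 and AML1-ETO lay 3 bp apart in intron 4 (chr2:25502231-25502333), with neither co-regulator. An AML1-ETO summit without partners (chr2:25498177-25498276) lay 162 bp inside an annotated internal start and counts as a promoter by that rule, though the nearest H3K4me3 summit was 22722 bp away. Further single sites were those of AML1 at chr2:25496330-25496429, in an exon of a shorter transcript, and of p300 at chr2:25509035-25509134 and chr2:25537994-25538093. A pair of H3K4me3 summits stood at another internal start, 89289 and 89925 bp downstream of the canonical start, and the nearest AML1 summit was 20875 bp from them.

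TET2, the 5-methylcytosine dioxygenase, had the opposite pattern. Its 144 kb region held 1 summit of p300, 95 bp downstream of the canonical start (chr4:106068078-106068177), and 1 of H3K4me3, 114 bp from it. The nearest AML1-ETO and AML1 summits, 1 bp apart, lay 32913 and 32912 bp upstream of the start, and the nearest N-CoR summit was 561884 bp away.

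**Figure D4:**
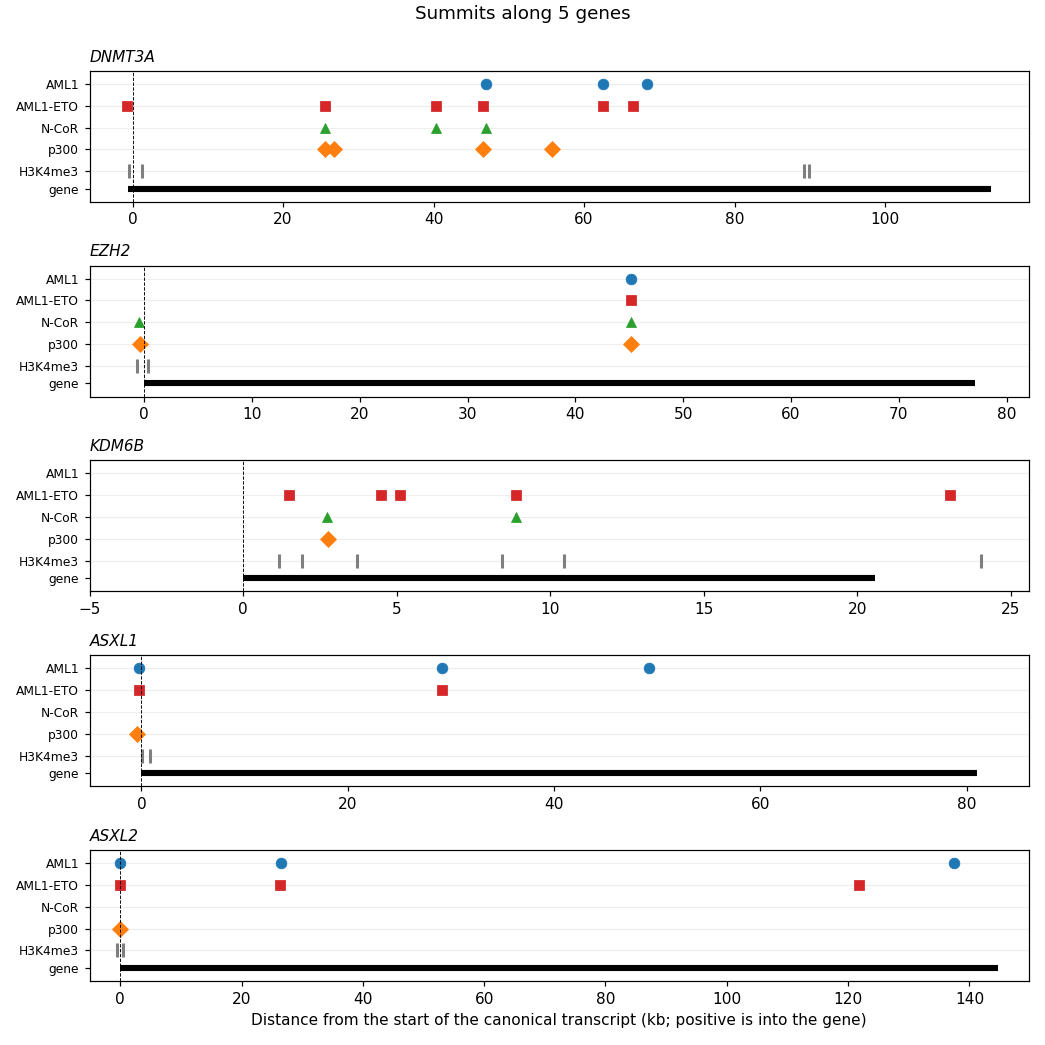
Summits (symbols) of the 5 lists (rows) along DNMT3A, EZH2, KDM6B, ASXL1 and ASXL2; the x axis is the distance from the canonical start in kb, positive into the gene, and the black bar is the gene body. DNMT3A has its protein sites spread as far as 68414 bp downstream of the start, EZH2 has 1 site with all 4 proteins in intron 3, and the row of AML1 is empty in KDM6B.

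EZH2, the H3K27 methyltransferase, had the single site with all 4 proteins. It lay in intron 3 (chr7:148536153-148536293), 45160 bp downstream of the canonical start and 7420 bp from the nearest annotated start, and 44801 bp from the nearest H3K4me3 summit. From the AML1-ETO summit, that of AML1 was 14 bp away, that of N-CoR 37 bp and that of p300 41 bp. Its TGTGGT is shown above. At the EZH2 promoter neither AML1 nor AML1-ETO was listed. There, p300 was 346 bp and N-CoR 482 bp upstream of the canonical start, with windows that did not touch, and H3K4me3 summits on both sides of each.

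KDM6B, the H3K27 demethylase, was the densest in AML1-ETO, with 5 summits in 30.6 kb, or 16.4 per 100 kb. As many or more were found at 2.78% of coding genes. It had 2 summits of N-CoR, 1 of p300 and 6 of H3K4me3, a number reached by 0.427% of coding genes, and the nearest AML1 summit was 198114 bp from the closest of these. No summit lay within 1 kb of its canonical start, where the nearest H3K4me3 summit was 1176 bp downstream. In intron 1, AML1-ETO lay alone between H3K4me3 summits at 326 and 422 bp (chr17:7738987-7739086), N-CoR and p300 shared a site 2741 bp from the start (chr17:7740217-7740335), and AML1-ETO lay alone again at chr17:7741962-7742061 and chr17:7742572-7742671, the latter 600 bp upstream of an internal start and so counted as a promoter summit. In intron 2, AML1-ETO and N-CoR were 4 bp apart (chr17:7746378-7746481). The fifth AML1-ETO summit (chr17:7760496-7760595) and the sixth H3K4me3 summit (chr17:7761518-7761617) were downstream of KDM6B and inside NAA38, near the starts of NAA38 and CYB5D1. Their gene is uncertain, and the shares of coding genes given above count both as KDM6B's. Transcripts without a gene name also start near the sites in the first 3 kb.

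ASXL1 and ASXL2 shared a promoter pattern that 3.68% of coding genes had: AML1, AML1-ETO, p300 and H3K4me3 without N-CoR. ASXL1 had 3 AML1, 2 AML1-ETO, 1 p300 and 2 H3K4me3 summits. At its promoter AML1 lay 196 bp, AML1-ETO 258 bp and p300 398 bp upstream of the canonical start, so p300 was 140 bp from AML1-ETO and outside its window. AML1 and AML1-ETO met again in intron 4 (chr20:30975203-30975334), 32 bp apart, and AML1 was listed alone in the same intron (chr20:30995279-30995378).

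ASXL2 had 3 AML1, 3 AML1-ETO, 1 p300 and 2 H3K4me3 summits. Its promoter site (chr2:26101315-26101523) joined AML1, AML1-ETO and p300, with p300 9 bp upstream of the start and H3K4me3 summits 453 and 455 bp to either side of it. In intron 1 AML1 and AML1-ETO were 6 bp apart (chr2:26074881-26074986). AML1-ETO was alone in intron 9 (chr2:25979470-25979569) and AML1 in the noncoding part of exon 13 (chr2:25963918-25964017). At both genes N-CoR was not listed, and its nearest summits lay 27054 bp (ASXL1) and 38191 bp (ASXL2) upstream of the canonical starts.

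The cohesin genes RAD21, SMC3 and STAG1 had 8 summits of the 4 proteins, of which 1 was AML1, 3 were AML1-ETO and 4 were p300, and none was N-CoR (26.7% of coding genes had an N-CoR summit). Per 100 kb, RAD21 held 2.57 p300 summits, SMC3 2.07 and STAG1 0.469, against 0.854 over all coding genes. For AML1-ETO these were 0, 2.07 and 0.469, against 1.04, and STAG1 made up 426 of the 513 kb searched. At SMC3, the ATPase subunit, AML1-ETO lay 65 bp and p300 112 bp downstream of the start, in the noncoding part of exon 1, and H3K4me3 at 556 bp. STAG1, the subunit that binds RAD21 on the ring, is the longest of the 10 genes at 416 kb, and its 6 summits all lay within 1 kb of the canonical start. There, 1 AML1-ETO summit was 30 bp from p300 (chr3:136471235-136471364) and another (chr3:136470716-136470815) had no partner. The start of the divergent transcript STAG1-DT lies beside both, so the promoter is shared.

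RAD21, the subunit that closes the ring, had p300 74 bp upstream of its start between H3K4me3 summits. The nearest AML1-ETO and N-CoR summits, on the same base, lay 108366 bp from that start. RAD21-AS1 starts in the same promoter. Its AML1 summit, 26099 bp downstream, lay in an exon of a RAD21 transcript, in intron 13 of the canonical one, and also within UTP23.

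ZBTB7A had 3 H3K4me3 summits, 691 bp upstream and 413 and 1829 bp downstream of the canonical start, and 1 N-CoR summit, in intron 2 at 14958 bp (chr19:4051889-4051988). No AML1, AML1-ETO or p300 summit lay in its region. Upstream, AML1 and AML1-ETO summits 22263 and 22308 bp from the start were the nearest. The N-CoR window held ACCACA, and 19.5% of all N-CoR windows held these letters or their reverse complement.

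Of the 9 p300 summits with H3K4me3 within 1 kb, 5 had it on both sides (55.6%, 21.2 to 86.3%; whole list 24.1%), at the promoters of ASXL2, EZH2, RAD21 and STAG1 and in intron 1 of KDM6B. For AML1-ETO this was so at 3 of 9 (33.3%, 7.49 to 70.1%; whole list 18.9%). Both intervals cover the share of the whole list. These are counts of called summits, which stand for local maxima and not for the width of the mark.

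TGTGGT or its reverse complement was in 5 of 20 AML1-ETO windows (31.3% of the whole list), at the shared ASXL1, ASXL2 and EZH2 sites, at the lone site in ASXL2 intron 9 and at the site downstream of KDM6B. They were in 0 of the 8 promoter windows and 5 of the other 12, and the whole list had the same order, with 16.5% of promoter and 37.2% of other windows. GAGGAA was in 4 of 20 (26% of the list), 3 of them in DNMT3A and 1 in KDM6B, and CCGGAA in 1 (7.35%), in STAG1. Of the AML1 windows, 5 of 11 held TGTGGT (40.6% of the list), and of the p300 windows 1 of 14 (6.66%). A match is only that these letters stand in the window, and a window without them may hold other forms of a site.

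Related genes gave a wider view. These were 32 genes for other cohesin, DNA methylation, Polycomb and H3K4 or H3K36 methylation proteins. AML1-ETO was at 20 of them (41.3% of coding genes), AML1 at 15 (34.9%), N-CoR at 15 (26.7%), p300 at 26 (45.5%) and H3K4me3 at 31 (68%). Their regions had a median length of 92.1 kb, similar to that of the 10 genes, against 37.2 kb for all coding genes. Per 100 kb they held 1.55 AML1-ETO summits (1.04 over all coding genes), 0.739 of AML1 (0.671), 0.763 of N-CoR (0.564) and 0.96 of p300 (0.854). At promoters, 15 of the 32 had AML1-ETO (23.3% of coding genes) and 11 had N-CoR (13.3%). BCOR, a co-repressor of a variant Polycomb complex, had the most AML1-ETO summits with 14, before the cohesin subunit STAG2 with 7, the Polycomb cofactor JARID2 with 6, and the dioxygenase TET3 and the H3K4 methyltransferase KMT2A with 4 each. All 4 proteins met at a site in 5 of the 32 (8.54% of coding genes), TET3, IDH1, JARID2, KMT2A and NSD1. Of these, IDH1 and NSD1 are named after their values were seen. ASXL3 had no summit in any of the 5 lists.

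**Figure D5:**
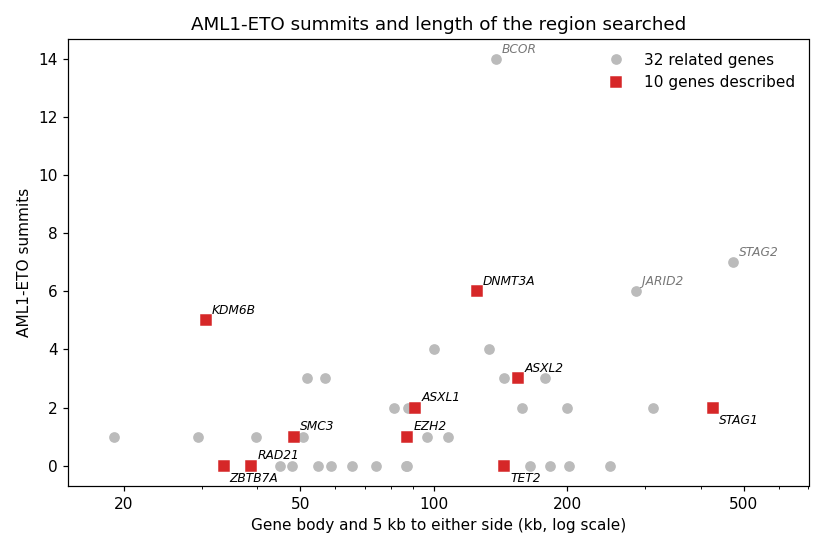
AML1-ETO summits (y axis) against the length of the region searched (x axis, kb, log scale) for the 10 genes (red) and the 32 related genes (grey). KDM6B has 5 summits in 30.6 kb and STAG1 2 in 426 kb.

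By group, of 10 cohesin genes and regulators 5 had AML1-ETO, each at a promoter, and 8 had p300 (41.3%, 23.3% and 45.5% of coding genes). N-CoR was at 5 of these 10, at a promoter in 4 (26.7% and 13.3% of coding genes). All 6 further DNA methylation genes had AML1-ETO, 5 at a promoter. Among 11 Polycomb genes and partners 4 had it, 2 at a promoter, and all 5 H3K4 and H3K36 methyltransferase genes did, 3 at a promoter. Each of these counts of AML1-ETO stands beside 41.3% of coding genes, and beside 23.3% at a promoter. The groups are small, gene lengths differ, and the difference between these groups was not tested.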

How the data were processed

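Kasumi-1 ChIP-seq peak lists of 5 antibodies (H3K4me3, p300, N-CoR, AML1-ETO and AML1) were used; H3K27me3 and input were not analysed here. Per the labels and methods, the authors called bases with CASAVA 1.6, aligned reads to GRCh37 with Bowtie 0.12.8, pooled 2 biological replicates per antibody and called peaks with MACS2 2.0.10.20131216 at p below 1e-20; the control used in calling is not given in the sources used here. Pooling removes the spread between replicates. The deposited files give genomic positions (100 bp intervals around summits) with no score, count or p-value, so none of these was computed, and the meaning of the order of peaks is not given in the sources used here.

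Summits (interval start + 50) were assigned to GENCODE 44 (lifted to GRCh37) genes with 5 kb to either side. Promoters reached 1000 bp from any annotated start of the gene, or of any coding gene where a whole list was split into promoter and other summits. Sites shared at least 1 bp of 100 bp windows, and H3K4me3 was counted within 1 kb. Intervals are exact (SciPy 1.17.1), sequences were read with pysam 0.24.0, and counting was tested on simulated data. All 10 genes were named. Of 32 related genes, those with the most AML1-ETO summits and the one without H3K4me3 at a start were named. Windows shown were the AML1-ETO summits nearest a start in 4 genes and the 4 intronic AML1-ETO summits with the lowest peak numbers, plus 4 chosen after their values were seen. The genes, lists and rules were chosen with earlier results of these data known. Alternatives were other flanks, window widths, promoter distances and start sets, summits moved by 1 base, the first 50% of each list, and leaving out DNMT3A.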

Additional observations from a re-analysis of the deposited data

How the results depend on the processing

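Of 79 values under alternatives, 66 stayed within 1.5 times the count reported or within its exact interval, and 13 moved further. This tally does not measure robustness: moving each summit by 1 base could hardly change a count, and keeping 50% of a list lowers counts by construction. Keeping the first 50% of the deposited order of each list left 7 AML1 summits at the 10 genes in place of 11, 6 of AML1-ETO (20), 4 of N-CoR (8), 9 of p300 (14) and 11 of H3K4me3 (25), and promoters with AML1 at 1 gene (2), with AML1-ETO at 2 (6) and with N-CoR at 0 (1). With no flank, p300 had 9 summits. Without DNMT3A, N-CoR had 5. With promoters reaching 2500 bp, AML1 was at 4 and N-CoR at 2, and extending windows to 100 bp on each side of a summit, 3 AML1-ETO windows held CCGGAA in place of 1. The cause of these moves was not tested, beyond fewer or more summits entering each count. No paired analysis was possible because replicates had been pooled in every list. A stricter threshold was not run, since the lists carry no score.

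Across all alternatives the share of AML1-ETO summits with N-CoR was 14.3 to 26.7%, that with AML1 25 to 35.7% and that with p300 16.7 to 40%. The lists give positions past 1 threshold, so weaker binding, heights and depth could not be compared, and a summit near a gene does not show that it acts on that gene.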
